A study of Homo sapiens with 12 samples.

Results

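The genes described here are ligands, receptors, SMADs and regulators of transforming growth factor beta (TGF-beta) signalling. They were chosen by gene symbol, with earlier results of these data known. Of the 10 symbols (TGFB1, TGFB2, TGFBR1, TGFBR2, TGFBI, SMAD2, SMAD3, SMAD4, SMAD7 and SKIL), 9 matched a row among the 11529 genes of the expression table. SMAD7, the inhibitory SMAD, was not analysed here. Expression was measured by RNA sequencing in 2 human triple-negative breast cancer cell lines, MDA-MB-468, classed as basal-like, and MDA-MB-231, classed as mesenchymal-like. Each line had 3 control samples, named control or wild type in the labels, and 3 SMARCA4 knockout (KO) samples, which carried a lentiviral CRISPR/Cas9 vector with a guide to an exon of SMARCA4, the ATPase subunit of the SWI/SNF chromatin remodelling complex. Whether the sequenced controls were parental cells or carried a control vector is not stated. All cells were grown in medium with serum and no ligand, inhibitor or drug treatment is given for these samples. The KO cells are polyclonal pools selected with puromycin, so a KO sample can hold edited and unedited cells. No source says that the replicates were separate cultures, so the p-values measure the spread between these samples, which may be technical. The values are log2(FPKM + 1), where FPKM is the fragment count scaled to transcript length and to the sequenced total, so levels can be set side by side between genes. The read depth is unknown.

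TGF-beta ligands are secreted in a latent form bound to latency proteins and are released by integrins and proteases. The active dimer brings together the type II receptor TGFBR2 and the type I receptor TGFBR1, and TGFBR1 phosphorylates SMAD2 and SMAD3. These join SMAD4, enter the nucleus and regulate target genes together with partners such as AP-1. SKIL (SnoN) represses SMAD-dependent transcription, and TGFBI is a secreted matrix protein named for its induction by TGF-beta. In breast epithelium the pathway is known both for growth arrest and for the epithelial-to-mesenchymal transition (EMT).

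The targeted gene was checked first. SMARCA4 stood at 96.9, 97.4 and 101.3 FPKM in the MDA-MB-468 control samples and at 39.7, 43.5 and 47.7 FPKM in the KO samples, and at 67.5, 71.5 and 67.0 against 21.0, 23.9 and 22.6 FPKM in MDA-MB-231. The KO level was 44.3% of the control FPKM in MDA-MB-468 (adjusted p = 0.014) and 32.7% in MDA-MB-231 (adjusted p = 0.0014), so SMARCA4 RNA was reduced and not absent, and RNA does not measure the protein. The markers of the lines followed their labels. The summed log2 level of the 9 epithelial markers ran from 73.4 to 75.1 in the 6 MDA-MB-468 samples and from 33.2 to 36.6 in the 6 MDA-MB-231 samples, where KRT5 and ESRP1 had mean log2 levels of 0.10 or less. The 6 mesenchymal-like markers summed to 22.7 to 25.2 in MDA-MB-468, where AXL and ZEB1 had mean log2 levels of 0.07 and 0.09 in control samples, and to 46.4 to 48.0 in MDA-MB-231. Of the markers of other cells, 0 of 5 fibroblast, 0 of 3 endothelial and 1 of 5 leukocyte genes (CD68, which tumour lines can express) had a row.

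TGFB1 was higher in SMARCA4 KO than in control MDA-MB-468 cells, and no other member passed the test there. A gene was called when its Benjamini-Hochberg adjusted p over all 11529 genes was under 0.05 and its absolute log2 fold change (log2 FC) was over 0.5. By this rule 1 of 9 members was called in MDA-MB-468, against 2.14% of all genes (247 genes). In MDA-MB-231 0 of 9 were called by limma, against 3.70% of all genes (426 genes), with 4 of the 9 at an unadjusted p under 0.05. The median log2 FC of the 9 members was 0.06 for MDA-MB-468 cells, beside 0.02 over all genes, and 0.05 for MDA-MB-231 cells, beside -0.01. Control and KO samples did not overlap for 3 of 9 members in either line, beside 31.0% (MDA-MB-468) and 36.0% (MDA-MB-231) of all genes. The difference between the KO changes of the lines was tested in 1 fit of all 12 samples and was called for 2 of 9 members, TGFB1 and TGFBR2, against 14.7% of all genes (adjusted p under 0.05 alone).

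**Figure D1:**
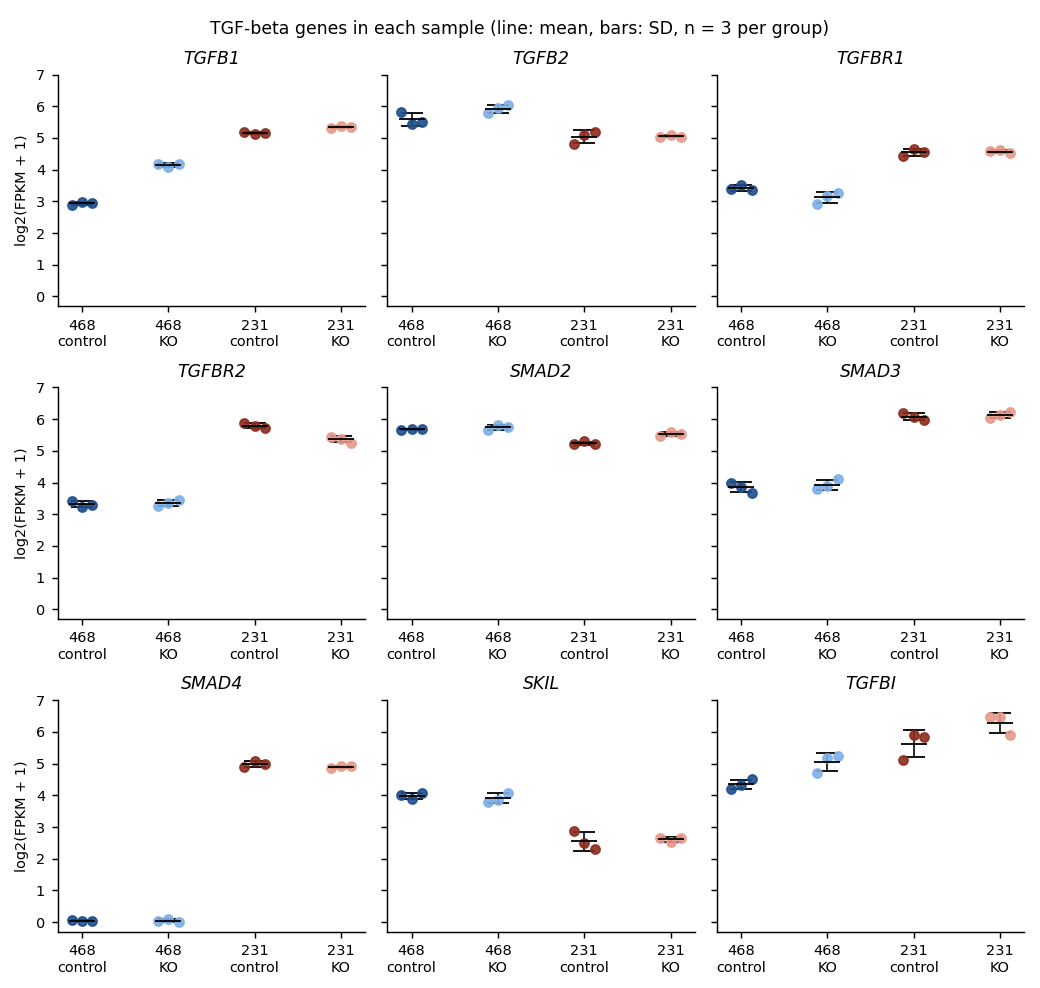
Level of the 9 members in each of the 12 samples, as log2(FPKM + 1); points are samples, the line is the mean and the bars are the SD of 3 samples. SMAD4 lies near 0 in all 6 MDA-MB-468 samples, and the 3 MDA-MB-468 KO samples of TGFB1 lie between the controls of both lines.

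The RefSeq promoter windows (GRCh38.p14, 250 bases before to 50 after the start) are shown for the 2 members whose KO change differed between the lines, TGFB1 and TGFBR2, and for TGFB2, the other ligand. Capitals mark matches on either strand to 4 motifs: AP-1 (TGANTCA), the SMAD-binding element (GTCTAGAC), the shorter SMAD motif CAGAC, and the TEAD motif (GGAATG). These matches do not overlap each other here.
TGFB1, chr19:41353873-41354172, minus strand: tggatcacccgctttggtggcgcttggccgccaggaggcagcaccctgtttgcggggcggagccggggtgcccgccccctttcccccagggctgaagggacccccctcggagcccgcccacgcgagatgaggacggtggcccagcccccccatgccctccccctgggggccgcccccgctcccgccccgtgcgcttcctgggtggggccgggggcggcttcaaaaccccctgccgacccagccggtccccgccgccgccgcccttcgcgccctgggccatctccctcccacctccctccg
TGFB2, chr1:218345086-218345385, plus strand: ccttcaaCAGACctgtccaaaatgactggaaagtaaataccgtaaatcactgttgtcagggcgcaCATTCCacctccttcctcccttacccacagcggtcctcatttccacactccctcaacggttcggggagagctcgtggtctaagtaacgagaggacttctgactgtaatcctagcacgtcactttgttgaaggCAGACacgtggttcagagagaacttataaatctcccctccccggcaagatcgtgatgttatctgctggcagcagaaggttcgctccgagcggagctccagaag
TGFBR2, chr3:30606351-30606650, plus strand: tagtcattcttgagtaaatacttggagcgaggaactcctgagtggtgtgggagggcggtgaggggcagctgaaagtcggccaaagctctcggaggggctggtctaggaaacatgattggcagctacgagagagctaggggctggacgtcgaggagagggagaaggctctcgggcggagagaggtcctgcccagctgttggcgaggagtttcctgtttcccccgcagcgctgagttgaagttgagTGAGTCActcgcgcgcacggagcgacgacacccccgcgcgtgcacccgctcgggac
The TGFB1 window held none of the 4 motifs and had a GC content of 77.3%. The TGFB2 window, at 51.7% GC, held CAGAC at 2 places and GGAATG on the reverse strand. The TGFBR2 window shown, 1 of 2 for this gene, held TGAGTCA from position -6, and the other window held none of the 4 motifs. Among 35116 windows of all genes, CAGAC was found in 45.3%, GGAATG in 14%, TGANTCA in 7.71% and GTCTAGAC in 0.202%, so only the AP-1 and full SMAD motifs are uncommon in windows of this length. These matches describe the letters of the window and say nothing of binding in these cells.

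TGFB1, the most widely expressed ligand (GRCh37 chr19:41807492-41859827, minus strand), stood at 6.46, 6.85 and 6.66 FPKM in MDA-MB-468 control samples and at 17.1, 15.9 and 17.0 FPKM in KO samples. The groups did not overlap, and the KO mean was 250% of the control mean on the FPKM scale. The log2 FC was 1.204 (SE 0.049, 95% interval 1.08 to 1.33, adjusted p = 0.0048). The call depended on single libraries. Without control replicate 2 the log2 FC was 1.22 with an adjusted p of 0.054, and without KO replicate 2 it was 1.24 with an adjusted p of 0.062, and in both of these fits 0 of 11529 genes were called. With the replicate number as a block, TGFB1 stayed called at an adjusted p of 0.033, and with a block by the p number of the sample descriptions it did not (adjusted p = 0.14, with 0 of 11529 genes called). The block by p number also joined KO replicate 1 and control replicate 3, whose p numbers differ and match no other sample of the line.

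In MDA-MB-231 TGFB1 was already high, at 35.1, 34.0 and 34.8 FPKM in control samples. The KO samples held 39.1, 40.4 and 39.4 FPKM, all above the controls. The difference was small (log2 FC 0.19, 95% interval 0.09 to 0.29, adjusted p = 0.043) and under the fold limit. In the fits without 1 library its adjusted p ran from 0.085 to 0.14. The KO change of TGFB1 in MDA-MB-468 exceeded that in MDA-MB-231 by 1.02 on the log2 scale (SE 0.078, adjusted p = 3.3e-05). After KO the MDA-MB-468 cells held 48.0% of the TGFB1 FPKM of MDA-MB-231 control cells, against 19.2% before, and the gap between the lines was -2.22 log2 units in control and -1.203 in KO samples.

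TGFB2, a second ligand (chr1:218518678-218617961, plus strand), was the higher of both in MDA-MB-468. Its control samples held 55.5, 42.3 and 44.3 FPKM and its KO samples 53.8, 60.6 and 64.4 FPKM. These groups overlapped through control replicate 1, and the log2 FC of 0.33 (95% interval 0.03 to 0.64) did not pass (adjusted p = 0.17). In MDA-MB-231 the control samples held 27.1, 33.4 and 35.7 FPKM and the KO samples 31.6, 33.1 and 31.9 FPKM, with a log2 FC of 0.02 (95% interval -0.25 to 0.28).

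The balance of the ligands therefore differed by line and by genotype. The FPKM ratio of TGFB2 to TGFB1 was 7.14 ± 1.28 (SD, n = 3) in MDA-MB-468 control samples and 3.59 ± 0.374 in KO samples, without overlap. In MDA-MB-231 it was 0.926 ± 0.136 in control and 0.813 ± 0.00481 in KO samples, which overlapped. These ratios describe the values above and were not tested apart from them.

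**Figure D2:**
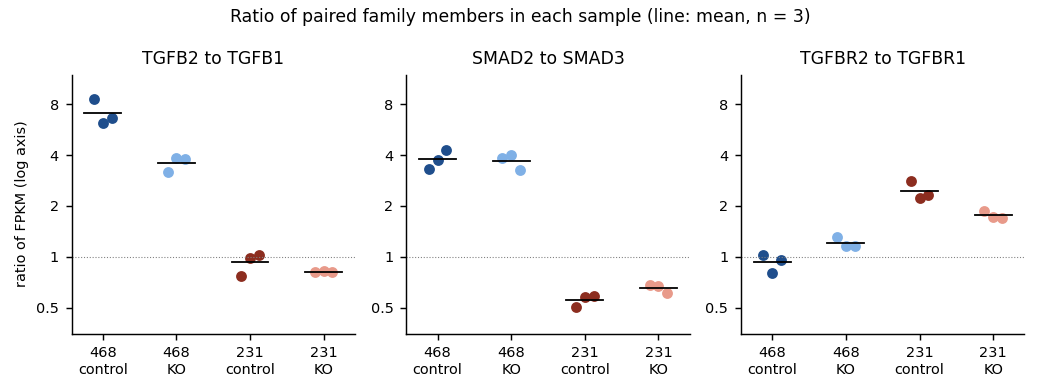
FPKM ratio of TGFB2 to TGFB1, SMAD2 to SMAD3 and TGFBR2 to TGFBR1 in each sample, on a log axis; points are samples and the line is the mean of 3. The TGFB2 to TGFB1 ratio ran from 6.17 to 8.58 in MDA-MB-468 control samples and from 3.16 to 3.82 in KO samples.

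TGFBR2, the ligand-binding receptor (chr3:30648093-30735634, plus strand), was lower after KO in the other line. In MDA-MB-231 it stood at 57.3, 54.3 and 51.9 FPKM in control samples and at 42.6, 40.7 and 37.3 FPKM in KO samples, all below the controls. The KO mean was 73.8% of the control FPKM, with a log2 FC of -0.43 (95% interval -0.60 to -0.26, adjusted p = 0.023). Its size lies under the fold limit of 0.5, so TGFBR2 was not called. In the fits without 1 library the adjusted p ran from 0.051 to 0.091. In MDA-MB-468 the level was low and overlapped between groups, at 9.75, 8.45 and 8.87 FPKM in control and 8.67, 9.22 and 9.98 FPKM in KO samples (log2 FC 0.04, 95% interval -0.15 to 0.22). The difference of the KO changes passed its own test at 0.47 log2 units (SE 0.11, adjusted p = 0.019).

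TGFBR1, the signalling kinase of the receptor pair (chr9:101866320-101916474, plus strand), was lower in every MDA-MB-468 KO sample than in the controls. The control samples held 9.43, 10.5 and 9.27 FPKM and the KO samples 6.61, 8.02 and 8.67 FPKM. The log2 FC of -0.30 (95% interval -0.55 to -0.04) did not pass over all genes (adjusted p = 0.15). In MDA-MB-231 it stood at 20.3, 24.3 and 22.4 FPKM in control and at 22.9, 23.5 and 21.9 FPKM in KO samples, with a log2 FC of 0.03 (95% interval -0.15 to 0.21). The difference of these changes, -0.33, did not pass (adjusted p = 0.12). The FPKM ratio of TGFBR2 to TGFBR1 was 0.931 ± 0.117 and 1.2 ± 0.0931 in MDA-MB-468 control and KO samples, and 2.46 ± 0.315 and 1.77 ± 0.0855 in those of MDA-MB-231.

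The receptor-activated SMADs showed small differences at most. SMAD2 (chr18:45335328-45457517, minus strand) held 35.9, 38.3 and 36.4 FPKM in MDA-MB-231 control samples and 43.5, 46.9 and 45.0 FPKM in KO samples, without overlap. Its log2 FC was 0.28 (95% interval 0.16 to 0.41, adjusted p = 0.029), under the fold limit. In MDA-MB-468 it held 49.8, 50.5 and 50.4 FPKM in control and 49.8, 55.0 and 52.6 FPKM in KO samples (log2 FC 0.06, 95% interval -0.06 to 0.19). The difference between the lines was -0.22 (adjusted p = 0.098).

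SMAD3 (chr15:67356101-67487511, plus strand) overlapped between control and KO samples in both lines. It ran from 11.8 to 14.98 FPKM in MDA-MB-468 control and from 13.02 to 16.2 in KO samples, with a log2 FC of 0.08 (95% interval -0.20 to 0.37). In MDA-MB-231 it ran from 62.2 to 71.4 FPKM in control and from 64.1 to 73.4 in KO samples, with a log2 FC of 0.05 (95% interval -0.14 to 0.24). SMAD2 thus exceeded SMAD3 by an FPKM ratio of 3.77 ± 0.479 in MDA-MB-468 control samples, whereas in MDA-MB-231 control samples the ratio was 0.554 ± 0.0443.

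SKIL, the SMAD repressor (chr3:170075130-170114623, plus strand), did not pass in either line. It held 15.2, 13.7 and 15.7 FPKM in MDA-MB-468 control and 12.8, 13.4 and 16.01 FPKM in KO samples (log2 FC -0.08, 95% interval -0.32 to 0.17). In MDA-MB-231 it was lower, at 6.38, 4.63 and 3.91 FPKM in control and 5.25, 4.74 and 5.34 FPKM in KO samples (log2 FC 0.05, 95% interval -0.33 to 0.43).

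TGFBI, the induced matrix protein (chr5:135364677-135399507, plus strand), had the largest log2 FC after TGFB1 in MDA-MB-468 and the largest of the members in MDA-MB-231, and passed in neither line. In MDA-MB-468 the control samples held 17.4, 19.1 and 21.7 FPKM and the KO samples 25.2, 35.3 and 37.2 FPKM, all above the controls. The log2 FC of 0.70 (SE 0.16, 95% interval 0.29 to 1.11) did not pass (adjusted p = 0.074). It was called without KO replicate 1, at 0.87 (adjusted p = 0.025). In MDA-MB-231 the control samples held 34.1, 59.1 and 56.1 FPKM and the KO samples 87.8, 88.0 and 59.1 FPKM, so control replicate 1 and KO replicate 3 stood apart from their groups, which met at 59.1 FPKM. The log2 FC was 0.66 (95% interval 0.01 to 1.31, adjusted p = 0.15), and the difference between the lines was 0.04 (95% interval -0.64 to 0.72).

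**Figure D3:**
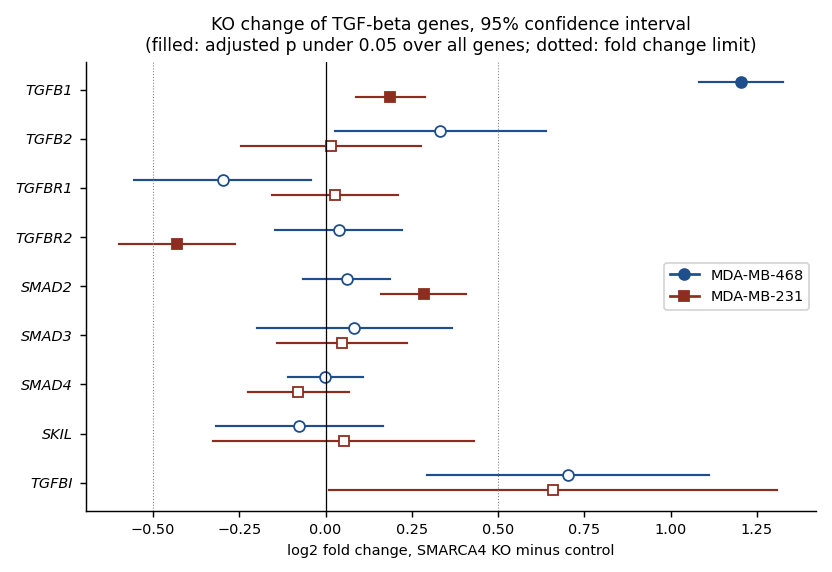
Log2 FC of KO against control for the 9 members in MDA-MB-468 (circles) and MDA-MB-231 (squares), with 95% confidence intervals; filled symbols have an adjusted p under 0.05 over all genes and dotted lines mark the fold limit of 0.5. The MDA-MB-468 interval of TGFB1, 1.08 to 1.33, lies beyond the limit, while the filled symbols of MDA-MB-231 (TGFB1, TGFBR2 and SMAD2) lie inside it.

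The lines themselves differed far more than control and KO cells did. Between the control samples 8 of 9 members were called, 2 higher and 6 lower in MDA-MB-468, against 64.1% of all genes (7395 genes). Groups did not overlap for 9 of 9 members, as for 85.5% of all genes. The median log2 difference of the members, MDA-MB-468 minus MDA-MB-231, was -1.28, beside 0.01 over all genes. SMAD4 differed most (-4.94), followed by TGFBR2 (-2.47), SMAD3 (-2.23), TGFB1 (-2.22), TGFBI (-1.28) and TGFBR1 (-1.12), each with an adjusted p of 0.00047 or less. SKIL was higher in MDA-MB-468 by 1.43 (adjusted p = 3.8e-05) and TGFB2 by 0.55 (adjusted p = 0.0057). The TGFB2 difference went under the fold limit without MDA-MB-231 control replicate 1 or MDA-MB-468 control replicate 1 (0.43 in both cases). SMAD2 was higher in MDA-MB-468 by 0.44 (adjusted p = 0.00033), under the fold limit.

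The order of the levels on the FPKM scale was therefore different in each line. In MDA-MB-468 control samples SMAD2 (50.2 ± 0.379, SD, n = 3) and TGFB2 (47.3 ± 7.09) were highest and overlapped, followed by TGFBI (19.4 ± 2.14), SKIL (14.8 ± 1.07) and SMAD3 (13.4 ± 1.60), of which the last pair overlapped. TGFBR1 (9.74 ± 0.680) and TGFBR2 (9.02 ± 0.663) overlapped, and TGFB1 (6.66 ± 0.195) and SMAD4 (0.033 ± 0.0058) came last. In MDA-MB-231 control samples SMAD3 was highest (66.8 ± 4.60) and SKIL lowest (4.97 ± 1.27). Between them TGFBR2 (54.5 ± 2.73) overlapped TGFBI (49.8 ± 13.7), TGFBI overlapped SMAD2 (36.9 ± 1.24), TGFB1 (34.6 ± 0.558) overlapped TGFB2 (32.1 ± 4.48), and TGFB2 overlapped SMAD4 (30.7 ± 2.01). In the KO samples TGFB1 (16.6 ± 0.662) stood in place 4 of the MDA-MB-468 order, against place 8 in the control samples, and overlapped SMAD3.

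SMAD4, the common partner of SMAD2 and SMAD3 (chr18:48554898-48611415, plus strand), was the member with the largest difference between the lines. Homozygous loss of this gene is a known feature of MDA-MB-468 cells, stated here as background, since no DNA was measured. It held 0.04, 0.03 and 0.03 FPKM in MDA-MB-468 control samples and 0.02, 0.07 and 0.01 FPKM in KO samples, a few steps of the 0.01 FPKM to which the values were rounded. In MDA-MB-231 it held 28.7, 32.7 and 30.8 FPKM in control samples and 28.3, 29.3 and 29.3 FPKM in KO samples, which overlapped. MDA-MB-468 control samples thus held 0.109% of the MDA-MB-231 level. The KO log2 FC was 0.00 (95% interval -0.11 to 0.11) in MDA-MB-468, where the added 1 leaves little room for change, and -0.08 (95% interval -0.23 to 0.07) in MDA-MB-231. The TGFB1 increase in MDA-MB-468 was therefore measured in cells with almost no SMAD4 RNA.

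The low level concerned SMAD4 and none of the 10 genes listed nearest to it on the chromosome, 5 on each side. ME2, a mitochondrial malic enzyme that ends 74.3 kb before SMAD4, held 28.6, 26.6 and 27.1 FPKM in MDA-MB-468 control samples and 20.5, 18.3 and 19.9 FPKM in those of MDA-MB-231. MEX3C, an RNA-binding ubiquitin ligase 89.5 kb beyond it, held 17.7, 17.6 and 20.4 against 7.84, 9.65 and 7.65 FPKM. Among the 10 neighbours, 5 were called higher in MDA-MB-468 (MYO5B 2.11, RAB27B 1.63, MBD2 1.23, MEX3C 1.06 and POLI 0.67) and 1 was called lower (C18orf54, -1.07), 6 of 10 in all, beside 64.1% of all genes. ME2 (0.47) and SKA1 (-0.38) had adjusted p of 0.00046 and 0.0049 under the fold limit, and MBD1 (0.08) and CXXC1 (0.08) did not pass. After ME2 and MEX3C, the next genes of the table lay farther off, SKA1 634 kb before SMAD4 and MBD2 3070 kb beyond it. Genes between these that have no row in the table were not analysed here.

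**Figure D4:**
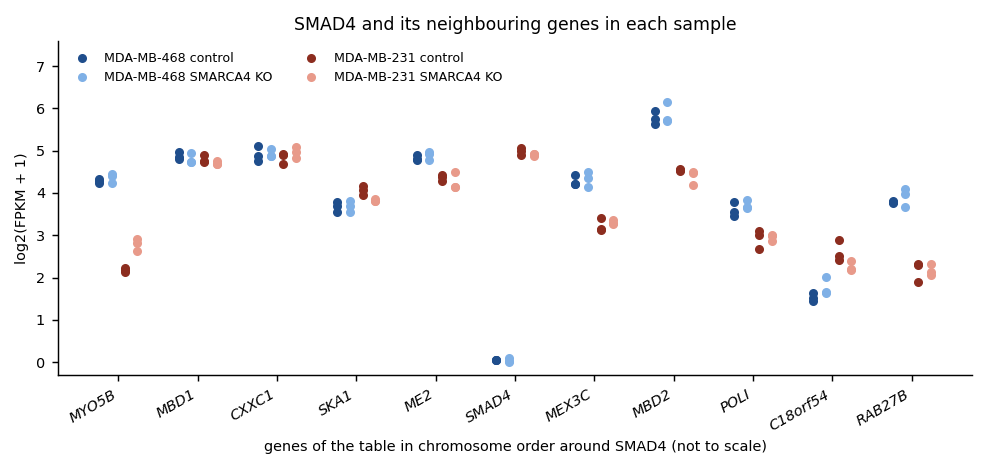
Level of SMAD4 and the 5 nearest genes of the table on each side in each sample, as log2(FPKM + 1), in chromosome order and not to scale; each point is a sample, coloured by line and genotype. SMAD4 alone lies near 0 in the MDA-MB-468 samples, while ME2 and MEX3C have control means of 4.83 and 4.29 there.

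Such a pattern was not found for SMAD4 alone in the table. With limits chosen after the values were seen, 7013 genes held over 10 FPKM in all 6 MDA-MB-231 samples, and 73 of these held under 0.1 FPKM in all 6 MDA-MB-468 samples. The 3 genes whose centred log2 values over the 12 samples were nearest to those of SMAD4 were GLYR1 (root mean square difference 0.0512), KCTD5 (0.0566) and SPG20 (0.0710). GLYR1 is listed at 0 in MDA-MB-468. For TGFB1 they were ETS1 (0.193), PDE4A (0.194) and SEMA6B (0.216), whose mean log2 levels in MDA-MB-468 went from 3.91 to 4.86, from 1.43 to 2.36 and from 2.20 to 3.32 between control and KO samples. For TGFBR2 they were SATB1 (0.0713), EPHX4 (0.0949) and GPR3 (0.104). These are descriptions over 12 samples in 4 groups, with no test.

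The other genes of the pathway were grouped in 6 lists with 105 of 149 symbols in the table. In MDA-MB-468 4 of 105 were called, 3 higher and 1 lower, and in MDA-MB-231 11 of 105, 7 higher and 4 lower, beside the 2.14% and 3.70% of all genes given above. The list medians of the log2 FC over all 105 genes were 0.03 and 0.02. The difference between the lines was called for 23 of 105, 18 of them higher in MDA-MB-468, beside 14.7% of all genes. The MDA-MB-468 calls depended on single libraries, with 0 of the 105 genes called without control replicate 2 or 3 or KO replicate 2 or 3, 1 without control replicate 1, and 9 without KO replicate 1. Those of MDA-MB-231 ranged from 1 (without KO replicate 2) to 8.

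Among the other ligands and antagonists, 5 of 15 were in the table. TGFB3, the third ligand, fell in MDA-MB-468 from 2.18, 1.63 and 2.13 FPKM to 0.59, 0.74 and 0.74 FPKM, opposite in sign to TGFB1 (log2 FC -0.81, adjusted p = 0.020). The call was lost with the replicate block (adjusted p = 0.0505) and with the block by p number (adjusted p = 0.14). It was also lost without control replicate 1, 2 or 3 or KO replicate 2 or 3 (adjusted p = 0.063 to 0.0998). In MDA-MB-231 TGFB3 had a log2 FC of -0.63 (adjusted p = 0.18), and the difference between the lines was -0.18 (95% interval -0.81 to 0.45, adjusted p = 0.71). FST (follistatin), which binds and blocks activins, fell in MDA-MB-231 from 22.1, 16.9 and 25.1 FPKM to 9.66, 9.52 and 13.1 FPKM (log2 FC -0.92, adjusted p = 0.035). Without 1 library its adjusted p ran from 0.045 to 0.12.

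Of the latency and activation genes, 14 of 21 were in the table. LTBP3, which binds latent TGF-beta to the matrix, rose in MDA-MB-231 from 9.23, 13.98 and 12.3 FPKM to 29.7, 28.2 and 19.5 FPKM (log2 FC 1.06, adjusted p = 0.036). Without 1 library its adjusted p ran from 0.041 to 0.12. In MDA-MB-468 0 of 14 were called, and 4 had an unadjusted p under 0.05. Of 8 other receptors and coreceptors in the table, NRP2 was called higher in MDA-MB-231 (log2 FC 0.52, adjusted p = 0.019, and 0.043 to 0.063 without 1 library). In MDA-MB-468 0 of the 8 were called, with 1 at an unadjusted p under 0.05. For the 3 other SMADs and the 35 signal regulators and SMAD partners in the table, limma called 0 in either line. Unadjusted p under 0.05 were found for 1 and 7 of these in MDA-MB-468 and for 1 and 10 in MDA-MB-231. The counts of unadjusted p in these lists stand beside 2899 (MDA-MB-468) and 3596 (MDA-MB-231) of all 11529 genes.

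Of the TGF-beta response genes, the longest of the 6 lists, 40 of 55 were in the table. In MDA-MB-468 3 of 40 were called, all higher, beside 2.14% of all genes. TIMP3, an inhibitor of metalloproteinases, rose from 5.83, 6.81 and 7.52 FPKM to 15.1, 20.9 and 25.3 FPKM (log2 FC 1.45, adjusted p = 0.029). It was also higher in every MDA-MB-231 KO sample than in the controls there, without a call (log2 FC 0.45, adjusted p = 0.080). CDKN1A, the cell cycle inhibitor p21, rose from 15.4, 13.2 and 13.3 FPKM to 25.5, 25.7 and 26.3 FPKM (log2 FC 0.85, adjusted p = 0.014). COL4A1, a basement membrane collagen, rose from 0.86, 1.1 and 1.02 FPKM to 1.58, 2.03 and 2.06 FPKM (log2 FC 0.53, adjusted p = 0.039).

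In MDA-MB-231 8 of 40 response genes were called, 5 higher and 3 lower, beside 3.70% of all genes. ANGPTL4, a secreted regulator of lipoprotein lipase, rose from 3.0, 3.57 and 4.28 FPKM to 14.1, 10.6 and 8.60 FPKM (log2 FC 1.37, adjusted p = 0.017). NEDD9, a focal adhesion scaffold, rose by 1.29 (adjusted p = 0.015) and ID1, an inhibitor of basic helix-loop-helix factors, by 0.92 (adjusted p = 0.038). ID1 was also higher in every MDA-MB-468 KO sample than in the controls (log2 FC 0.56, adjusted p = 0.16). The difference between the lines was not called for ID1 (-0.36, adjusted p = 0.39) or NEDD9 (-1.06, adjusted p = 0.060). IL11, a cytokine of the interleukin-6 family, fell from 103.4, 92.2 and 87.6 FPKM to 13.5, 12.9 and 15.6 FPKM, 14.8% of the control level (log2 FC -2.67, adjusted p = 0.0014). HMGA2, an architectural chromatin protein, had a log2 FC of -0.55 (adjusted p = 0.023) and LOX, which crosslinks collagen, of -0.54 (adjusted p = 0.039). LOX lost the call in every fit without 1 library (adjusted p = 0.058 to 0.13). In such fits the adjusted p reached 0.075 for ANGPTL4, 0.073 for NEDD9, 0.13 for ID1 and 0.097 for HMGA2. IL11 stayed at 0.028 or less. The calls of this list thus went in both directions in MDA-MB-231.

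Between the control samples 80 of 105 pathway genes were called, 28 higher and 52 lower in MDA-MB-468, beside 64.1% of all genes. For the response genes these were 10 higher and 27 lower of 40, with a median of -1.84 beside 0.01 over all genes. Large differences on the low side were those of IL11 (-5.94) and MMP14 (-5.45), a membrane metalloproteinase. On the high side were CD109 (4.48), a TGF-beta coreceptor, ITGB6 (4.196), an integrin subunit that releases latent TGF-beta, and PDGFB (4.03). Many features besides SMAD4 differ between the lines, and their shares in these differences cannot be told apart.

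**Figure D5:**
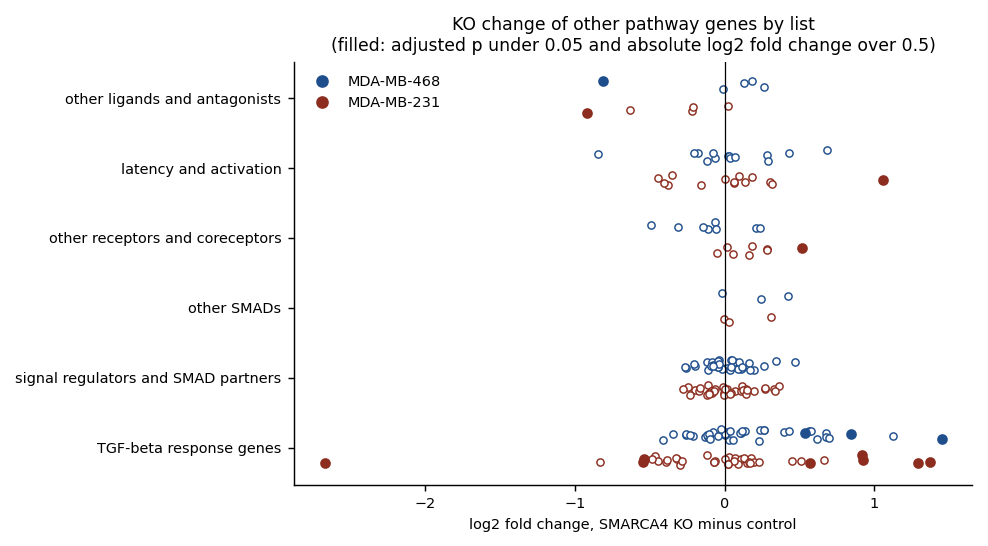
Log2 FC of KO against control for the 105 other pathway genes by list, in MDA-MB-468 (blue) and MDA-MB-231 (red); each point is a gene and filled points were called. IL11 at -2.67 in MDA-MB-231 and TIMP3 at 1.45 in MDA-MB-468 lie farthest out among the filled points on each side.

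The summed log2 levels of the mesenchymal-like and of the epithelial markers were both higher in KO than in control MDA-MB-468 samples, the former mostly through 1 gene. The mesenchymal-like sum ran from 22.65 to 22.74 in the MDA-MB-468 control samples and from 23.9 to 25.2 in the KO samples, with 6 of 6 markers in the table and AXL and ZEB1 still near 0 (means of 0.11 and 0.20). CAV1, a protein of caveolae, had the largest difference (1.44, adjusted p = 0.062), followed by VIM (0.42), while those of ZEB1 (0.11), AXL (0.04), MSN (0.02) and CD44 (-0.12) were small. The epithelial sum ran from 73.39 to 73.67 in control and from 73.69 to 75.06 in KO samples. Its largest differences were those of KRT8 (0.49) and KRT5 (0.351), while CDH1 (-0.217), ESRP1 (-0.131) and EPCAM (-0.094) were lower. In MDA-MB-231 the mesenchymal-like sum ran from 47.1 to 48.0 in control and from 46.4 to 47.3 in KO samples. The part of these markers in the TGFB1 result was not tested.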

How the data were processed

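RNA was sequenced in 12 samples with a stranded mRNA library kit. Per the study's methods, the authors trimmed the reads with Trimmomatic, aligned them to hg19 with STAR, and obtained FPKM from RSEM. Genes whose FPKM averaged below 1, or varied by an SD below 1, were dropped by the authors. The deposited table gives 11529 genes as log2(FPKM + 1). Such a filter can remove low genes, and a log2 FC on this scale understates changes of low genes. No counts were used, so the depth is unknown.

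Each line was fitted alone on the deposited log2 values with limma 3.58.1 in R 4.3.3 (lmFit, eBayes without trend), 3 KO against 3 control samples, two-sided, with Benjamini-Hochberg adjustment over 11529 genes. The control samples of both lines were fitted in the same way, and the difference of KO changes was the interaction in a fit of 4 groups. The fits were run on simulated data with independent noise and a single size of change, larger than most changes given here. That run therefore does not bear on smaller changes or on samples that deviate together. FPKM values are 2 to the power of the deposited value minus 1. Replicate numbers come from the titles. In MDA-MB-468 the same-numbered control and KO samples deviated together (correlations of 0.258, 0.179 and 0.138 over 10874 genes). The main fits took the samples as unpaired, and a block by replicate number was an alternative.

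The genes and lists were chosen with earlier results of these data known. Beside the members, the text names from each list and KO comparison up to 3 called genes in each direction with the largest change, the 3 largest in each direction between the lines, the 5 table neighbours of SMAD4 on each side, the 3 genes most like TGFB1, TGFBR2 and SMAD4, and SMARCA4. A gene that this rule names is not reported here. Gene positions are from GENCODE on GRCh37, and promoter sequences are from RefSeq on GRCh38.p14. Alternatives were another pseudocount, a filter on low values, an intensity trend, a robust prior, 2 scalings, other limits, replicate blocks, 1 fit of all samples, and each library left out.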

Additional observations from a re-analysis of the deposited data

Results flagged for a closer look

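The KO change differed between the cell lines, by the interaction test over all 12 samples, for 2 members, 7 of the named pathway genes, MYO5B and SMARCA4. The values are the MDA-MB-468 change minus the MDA-MB-231 change on the log2 scale. For the ligand TGFB1 it was 1.02 (adjusted p = 3.3e-05) and for the receptor TGFBR2 0.468 (adjusted p = 0.0185), and both passed in each of the 12 fits without 1 library. The antagonist FST differed by 1.19 (adjusted p = 0.0075) and the latency gene LTBP3 by -0.774 (adjusted p = 0.039). LTBP3 lost the call in 10 of the 12 fits without 1 library (adjusted p = 0.053 to 0.092), and FST lost it with a pseudocount of 0.1 (adjusted p = 0.051). Among the response genes the differences were 2.78 for IL11 (adjusted p = 1.1e-05), 1.0 for TIMP3 (adjusted p = 0.0186), 0.776 for CDKN1A (adjusted p = 0.0042), 0.598 for HMGA2 (adjusted p = 0.0077) and -1.36 for ANGPTL4 (adjusted p = 0.0018). These 5 passed in each fit without 1 library, and HMGA2 lost the call with the pseudocount of 0.1 (adjusted p = 0.12). MYO5B, a myosin gene near SMAD4, differed by -0.539 (adjusted p = 0.0135) and passed in each fit without 1 library. SMARCA4 itself differed by 0.41 (adjusted p = 0.027), with the larger reduction in MDA-MB-231, and lost the call in 6 of the 12 fits without 1 library (adjusted p = 0.053 to 0.067). The part of this unequal reduction in the other differences was not tested. FST, IL11, HMGA2 and ANGPTL4 stand under 1 FPKM in MDA-MB-468 control samples, where the added 1 limits the change that can be seen.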

How the results depend on the processing

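The members called in MDA-MB-468 went from 1 to 2 with a filter on a mean log2 value of at least 1 or with a robust prior, both adding TGFBI (adjusted p = 0.038 and 0.044), and to 0 with a block by the p number in the descriptions (TGFB1 adjusted p = 0.14), a fit that called 0 of 11529 genes. Without 1 library the count was 0 to 2. In MDA-MB-231 3 members (TGFB1, TGFBR2 and SMAD2) passed on the adjusted p alone, and none of them did so without 1 library (adjusted p = 0.051 to 0.14). The interaction kept 1 member, TGFB1, when a difference over 0.5 was also asked for. Of the 105 pathway genes, MDA-MB-468 gave 4, and 7 with the filter, 8 with the robust prior, 8 on the adjusted p alone, 10 in 1 fit of all samples, 0 with the block by p number and 0 to 9 without 1 library. MDA-MB-231 gave 11, and 18 on the adjusted p alone, 0 with the replicate block and 1 to 8 without 1 library, and the interaction gave 23, and 14 to 27 without 1 library. For the single members, 570 of 584 alternative values kept their side of the threshold, 8 passed newly and 6 lost the call. For the other named genes 1757 of 1876 kept their side, 21 passed newly and 98 lost the call. No called value changed sign. Values near 0 that were not called could change sign, as for SKIL in MDA-MB-231 (log2 FC 0.05, lowest alternative -0.08). The causes were not tested. A fit without 1 library also has fewer samples from which to estimate the spread, and the part of this was not tested.

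The replicate block gave 241 called genes in MDA-MB-468 (247 without it). In MDA-MB-231 the same-numbered samples also share the p number of the descriptions, and had correlations of -0.0515, 0.101 and -0.118. There the block gave 0 called genes (426 without it, smallest adjusted p 0.052). Not every MDA-MB-231 sample correlated best with its own number. In the interaction the block gave 1463 genes (1699 without it) and the same 2 members, and LTBP3 was lost (adjusted p = 0.061). Among the members the block changed no call. Over all genes the calls ranged from 0 to 537 in MDA-MB-468 and from 0 to 1248 in MDA-MB-231, and the interaction split of 912 higher of 1699 became 671 of 1612 under a scaling to the 75th percentile. No read depth is known, so the counting error of levels near 0, such as SMAD4 in MDA-MB-468, could not be estimated.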
